A study of Mus musculus with 4 samples.

Results

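The miR-200 family was read in mouse liver on 4 Agilent miRNA arrays. It comprised the 5 mature miRNAs that the arrays name mmu-miR-200b, mmu-miR-200a, mmu-miR-429, mmu-miR-200c and mmu-miR-141 (written without the prefix below), chosen by name out of 611 mouse miRNAs, with their star strands left out. All mice were males of 6 to 8 weeks, kept in 12 h of light and 12 h of dark for 2 weeks. They were either wild type (WT) or carried the *Clock* mutation Clock△19, and were killed at ZT2 or ZT14, which are 2 h and 14 h after lights on. Liver RNA of 3 mice was pooled for each array, so WT at ZT2, mutant at ZT2, WT at ZT14 and mutant at ZT14 had 1 array each and no condition had a replicate. Errors below are therefore the SD between spots of the same array, which covers the reading of the array and not the spread between mice or pools. The labels used here do not state the strain of the mice or the zygosity of the mutation.

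miRNAs pair with their target mRNAs mainly through the seed, the bases next to the 5′ end. miR-200 miRNAs are markers of epithelial cells, in which they hold down the transcriptional repressors ZEB1 and ZEB2 and thereby keep E-cadherin expressed. In the liver they are known from the bile duct epithelium more than from hepatocytes. CLOCK is a transcription factor of the circadian clock that acts with BMAL1, and Clock△19 codes for a protein that lacks part of its activation domain. In RNA of whole liver, fewer cells of a type and less RNA per cell cannot be told apart.

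The family holds 2 seeds, and the mature sequences (RefSeq, GRCm38.p6, 5′ to 3′) are shown because the seed divides it differently from its place in the genome. Capitals mark the seed, bases 2 to 8.
miR-200b: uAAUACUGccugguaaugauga
miR-429: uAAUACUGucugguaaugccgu
miR-200c: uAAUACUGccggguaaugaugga
miR-200a: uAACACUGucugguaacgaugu
miR-141: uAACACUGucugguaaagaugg
The first 3 shared the seed AAUACUG and the other 2 the seed AACACUG, which differ by U4C, counted from 1 at the 5′ end of the miRNA. No other mature mouse miRNA in the RefSeq table had either seed. Outside the seed, miR-200c differed from miR-200b at 2 of the first 22 bases (U11G and A22G), and miR-141 differed from miR-200a at 2 of 22 bases (C17A and U22G). Array probes for such close sequences can bind each other's miRNA in part, and the probe sequences were not used here.

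The 5 genes lie in 2 clusters. On chromosome 4, the hairpins of miR-200b, miR-200a and miR-429 follow each other in this order on the minus strand, at chr4:156053905-156055750, inside the long non-coding RNA gene Gm13648 (chr4:156052715-156059802). Their mature strands lie at chr4:156055685-156055706, chr4:156054911-156054932 and chr4:156053916-156053937. On chromosome 6, the hairpins of miR-200c and miR-141 lie on the minus strand at chr6:124717914-124718390, between the genes *Phb2* and *Ptpn6* and inside neither, with the mature strands at chr6:124718324-124718346 and chr6:124717917-124717938. Each cluster thus holds members with both seeds. These places are those of RefSeq, since the arrays name no build.

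The 2 clusters differed in whether they could be read. Feature Extraction, the scanner software, called miR-200b and miR-200a detected on all 4 arrays, miR-429 on the arrays of WT at ZT2 and of the mutant at ZT14, miR-141 on the array of WT at ZT2 alone, and miR-200c on none. The number of members detected was 4 of 5 for WT at ZT2, 2 for the mutant at ZT2, 2 for WT at ZT14 and 3 for the mutant at ZT14. Of all 611 mouse miRNAs, 31.6%, 26.4%, 22.6% and 23.2% were detected on the same arrays. The 4 star strands measured (miR-200a*, miR-200b*, miR-200c* and miR-141*), the opposite strands of the same hairpins, were detected on no array, and their mean signals lay between -8.17 and -4.13 units. Signals here are background-subtracted intensities in scanner units, so a value below 0 is dimmer than the local background.

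miR-200b, the brightest member, had signals of 49.9 units in WT at ZT2, 24.7 in the mutant at ZT2, 14.5 in WT at ZT14 and 36.3 in the mutant at ZT14. It was highest in WT at ZT2 and lowest in WT at ZT14, with both mutant arrays between them. Its 2 probes had different brightness and gave the same order of the raw signals. The brighter probe read 77.9 ± 5.26, 41.3 ± 4.97, 22.9 ± 5.05 and 56.5 ± 4.57 units on the 4 arrays in that order (SD, 9 or 10 spots), and the dimmer one read 21.9 ± 3.62, 8.18 ± 2.20, 6.06 ± 2.78 and 16.1 ± 2.75 units (SD, 8 to 10 spots). Before scaling, spots of the brighter probe ran from 68.8 to 87.2 in WT at ZT2 and 34.6 to 48.7 in the mutant at ZT2. They ran from 13.8 to 29.97 in WT at ZT14 and 50.6 to 63.7 in the mutant at ZT14. With the scaling described below, the range of the mutant at ZT2 overlaps those of both ZT14 arrays. How many other miRNAs have spots that far apart was not counted. Of the 20 spots for miR-200b, 14, 10, 4 and 10 were well above background.

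miR-200a, its neighbour with the other seed, had signals of 43.2, 24.4, 13.1 and 29.6 units on the same arrays, in the same order as miR-200b. Its brighter probe read 63.3 ± 7.10, 37.7 ± 4.99, 20.4 ± 2.52 and 41.8 ± 3.06 units (SD, 9 or 10 spots). Before scaling, the highest spot of this probe in WT at ZT14, 23.7 units, lay below its lowest spot on each other array. That array was the dimmest in general, and with the scaling described below its range overlaps that of the mutant at ZT2. The spots of the mutant at ZT2 (32.5 to 47.1) and at ZT14 (37.5 to 45.4) overlapped. On the array of WT at ZT14, 0 of the 20 miR-200a spots were well above background, against 17, 10 and 10 on the others, although the scanner called the miRNA detected there.

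miR-429, which has the seed of miR-200b, had signals of 18.8, 11.7, 7.48 and 16.8 units. Its 2 probes agreed within their spot SD on every array, and the levels ran in the same order as those of miR-200b and miR-200a. In WT at ZT14 its signal was lower than the negative control spots averaged, 8.32 units, and in the mutant at ZT2 it was 2.23 times their mean.

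**Figure D1:**
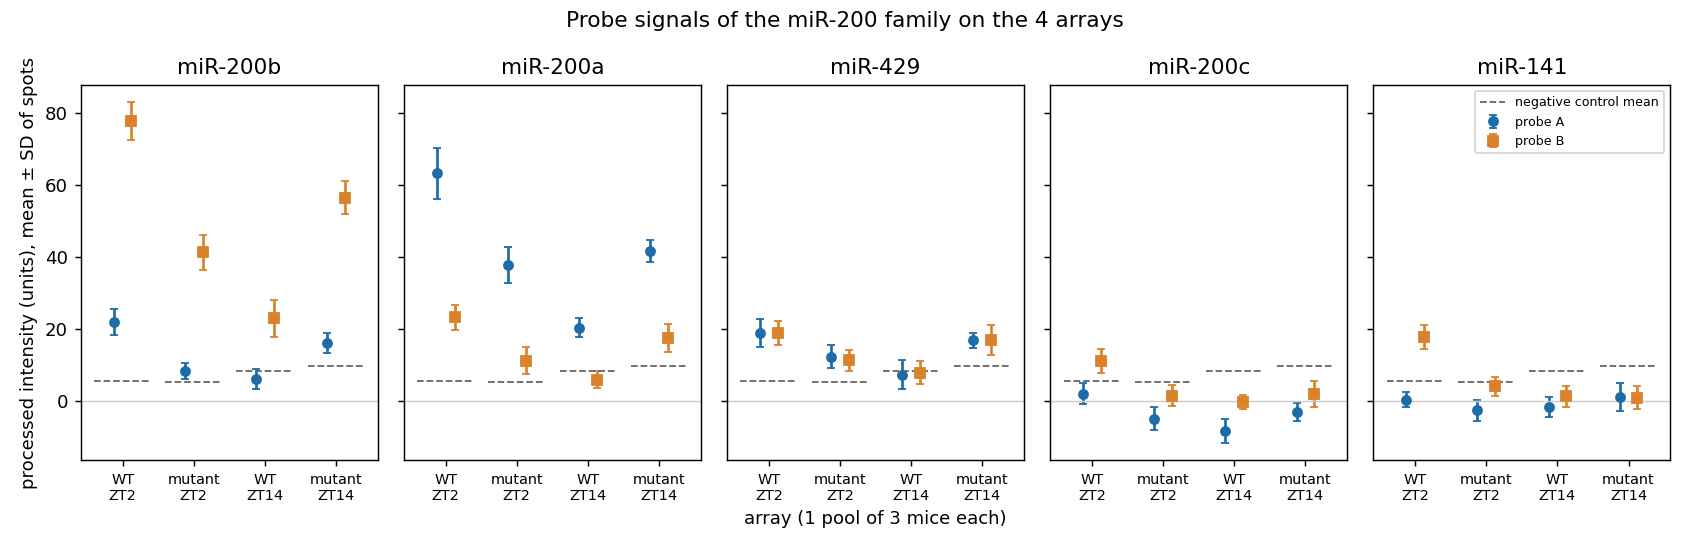
Mean processed intensity (scanner units, linear axis) of each of the 2 probes of the 5 members on the 4 arrays, with bars for the SD of 8 to 10 spots and dashed lines for the mean negative control signal. In miR-200b, miR-200a and miR-429 both probes are highest in WT at ZT2 and lowest in WT at ZT14, and of the probes of miR-200c and miR-141 only the brighter one of each lies above the negative controls, in WT at ZT2 alone.

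The chromosome 6 members were near the floor of the assay. miR-141 had signals of 9.01, 0.673, -0.250 and 0.897 units, and in WT at ZT2 the signal came from 1 of its probes, which read 17.7 ± 3.23 units against 0.289 ± 2.15 for the other (SD, 10 spots each). miR-200c had signals of 6.48, -1.83, -4.44 and -0.701 units. Both were brightest in WT at ZT2, the array on which the most mouse miRNAs were detected (193, against 161, 138 and 142), but miR-200c was not called there and no ratio can be given for it.

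For comparison between arrays, each signal was scaled to its array's own 75th percentile, taken over the 123 mouse miRNAs that every array detected. The percentiles came to 537, 503, 339.9 and 536 units, so the array of WT at ZT14, on which the family was dimmest, was the dimmest in general and scaling narrowed the differences. The scaled level of miR-200b was 9.30% of the percentile in WT at ZT2, 4.91% in the mutant at ZT2, 4.26% in WT at ZT14 and 6.78% in the mutant at ZT14. That of miR-200a was 8.06%, 4.85%, 3.85% and 5.53%, and that of miR-429 was 3.51%, 2.33%, 2.20% and 3.14%. The order of the 4 arrays was the same in all 3. For miR-200b, WT at ZT2 was above the mutant at ZT14 by 0.46 on the log2 scale (spot SD 0.20) and the mutant at ZT14 above the mutant at ZT2 by 0.47 (spot SD 0.27), while the mutant at ZT2 and WT at ZT14 differed by 0.20, less than the spot SD of 0.46. For miR-200a, the first step, 0.54, was beyond its spot SD of 0.25, and for miR-429 no step between neighbours was beyond its spot SD.

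**Figure D2:**
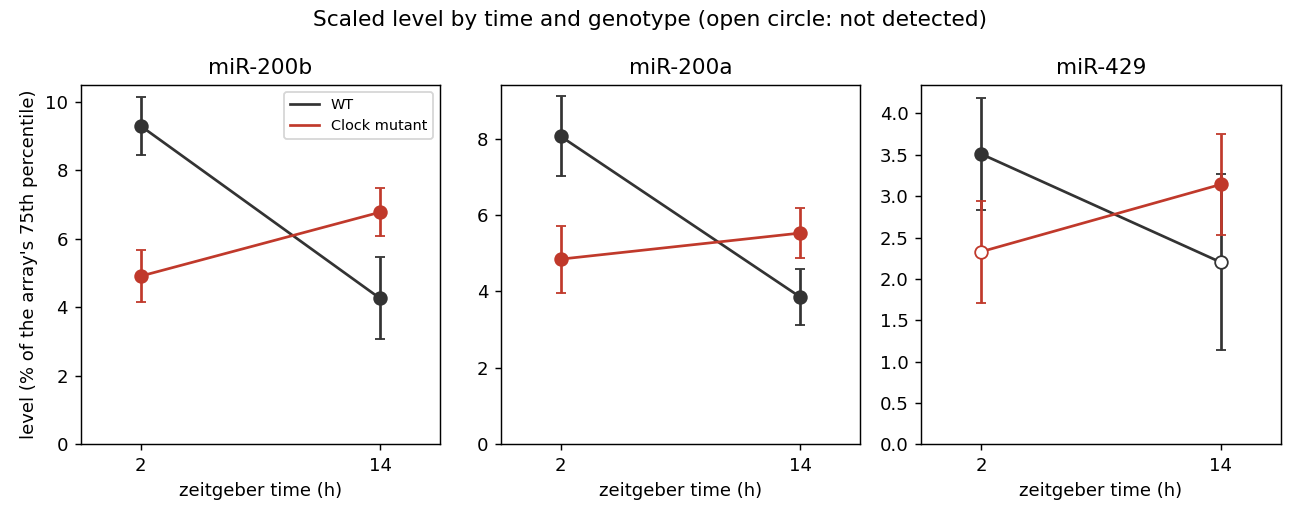
Scaled level (percent of the 75th percentile of the array, linear axis from 0) of the 3 chromosome 4 members against zeitgeber time in hours, for WT and *Clock* mutant, 1 array per point, with bars for the SD between spots and open circles where the miRNA was not detected. In each panel the line of WT falls from ZT2 to ZT14, for miR-200b from 9.30% to 4.26%, and crosses that of the mutant, which runs from 4.91% to 6.78%.

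The first comparison is that of the genotypes at ZT2. The mutant over WT log2 ratio of miR-200b was -0.92 (spot SD 0.26), a level 1.89-fold lower in the mutant, and that of miR-200a -0.73 (spot SD 0.32), 1.66-fold lower. The 2 probes of miR-200b gave -1.33 and -0.82, and those of miR-200a -0.97 and -0.66. miR-429, detected in WT only, was 1.51-fold lower against its own undetected signal in the mutant (log2 -0.59, spot SD 0.47). That signal lay above the lowest detected one, so the value is no minimum. miR-141, likewise detected in WT only, was at least 3.50-fold lower against the lowest signal detected in the mutant, but at least 1.61-fold lower when the average negative control, which is higher, was taken as the floor. At a threshold of 2-fold, that of the methods, 1 of 5 members (miR-141) was lower and none higher, where 8.25% of the 194 mouse miRNAs detected on either array were lower. The count of 1 rests on the bound of miR-141 and fell to 0 of 5 with the negative controls as the floor (5.67% of the 194). Across 15 other ways of processing, 0 to 3 members passed 2-fold, miR-141 in 8 and miR-200b in 3. In the authors' table undetected miRNAs have a fixed value, -6.59 in the mutant at ZT2. With the lowest value of a detected miRNA as the floor there, miR-429 alone passed 2-fold, with a bound of -1.26 (log2). Against the fixed value itself, both miR-429 (0.49 in WT) and miR-141 (-0.60 in WT) would have passed. At 1.5-fold, 4 of 5 members were lower, where 17.5% of the 194 were. Of these, miR-429 and miR-141 were bounds, which could only come out as lower. Across the 15 other ways of processing, 0 to 4 members passed 1.5-fold, where 1.03% to 26.3% of miRNAs did. miR-200b passed in 12, miR-200a in 10, miR-429 in 7 and miR-141 in 11. Over the 123 miRNAs detected on all arrays, which include 2 of the 5 members, the median log2 ratio was -0.01, and miR-200b and miR-200a had the third and the fifth lowest values.

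At ZT14 the direction was the other one. The mutant over WT log2 ratio of miR-200b was 0.67 (spot SD 0.43), a level 1.59-fold higher in the mutant, and that of miR-200a 0.52 (spot SD 0.32), 1.44-fold higher. The probes of miR-200b gave 0.76 and 0.65 (spot SD 0.71 and 0.34), and those of miR-200a 0.93 and 0.38 (spot SD 0.67 and 0.21). The first value of each pair is that of the dimmer probe. In WT at ZT14 the dimmer probes read 6.06 (miR-200b) and 5.82 units (miR-200a), under the mean negative control of 8.32. miR-429 was detected in the mutant alone, so its ratio could only come out as higher. It was 1.43-fold higher against its own undetected signal in WT (log2 0.51, spot SD 0.75). With the negative controls as the floor it was at least 1.28-fold higher. miR-200c and miR-141 were detected on neither array. No member passed 2-fold, and of the 157 mouse miRNAs detected on either array 0% were 2-fold higher and 13.4% 2-fold lower in the mutant at this time. This count depended on the scaling: under 6 of 15 other ways of processing both miR-200b and miR-200a were past 2-fold higher. They were no scaling, the percentile over all mouse miRNAs, quantile normalization, spike-in scaling, subtraction of the negative control mean and the authors' table, under which 1.91% to 18.5% of the 157 miRNAs were. miR-429 passed 2-fold under those except the subtraction, with bounds from 1.02 to 1.20 under the 4 scalings and 2.17 in the authors' table (log2). At 1.5-fold, 1 of 5 members was higher, where 3.82% of the 157 were. Across the 15 other ways of processing, 0 to 3 members were 1.5-fold higher, where 0% to 56.1% of miRNAs were. miR-200b passed in 13, miR-200a in 8 and miR-429 in 6. The value of miR-200b was the highest of the 123 miRNAs and that of miR-200a the fourth highest, with a median of -0.03.

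**Figure D3:**
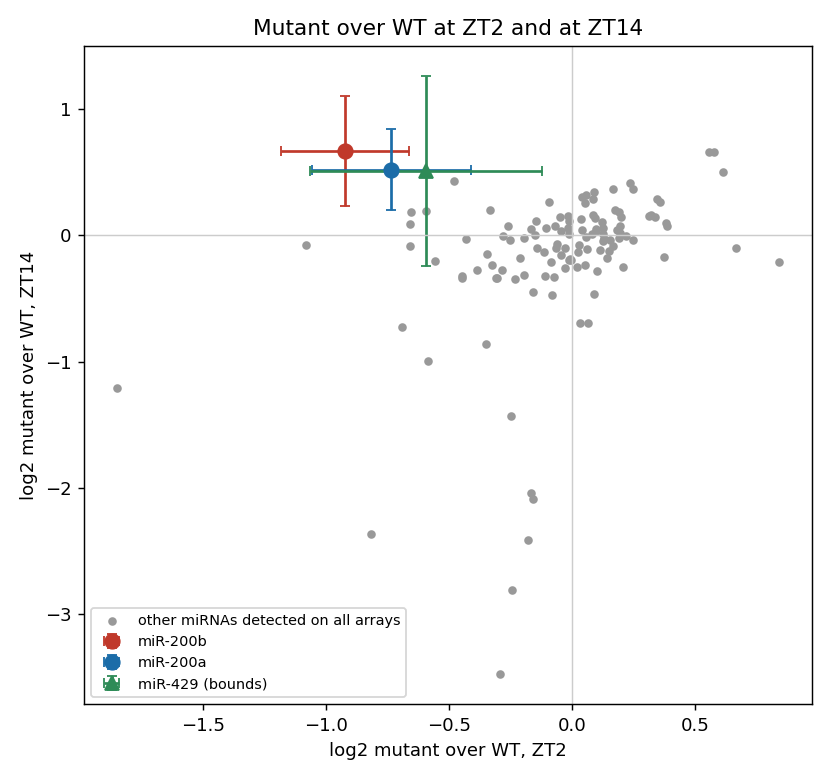
Log2 ratio of mutant to WT at ZT2 (x axis) against that at ZT14 (y axis) for the 123 mouse miRNAs detected on all 4 arrays (grey) and for miR-200b, miR-200a and miR-429, with bars for the SD between spots. The 3 members lie at the upper left, with ratios from -0.92 to -0.59 at ZT2 and from 0.51 to 0.67 at ZT14. Those of miR-429, drawn as bounds, are ratios to its own undetected signals.

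The log2 ratio of mutant to WT was higher at ZT14 than at ZT2 by 1.59 for miR-200b (spot SD 0.50) and by 1.26 for miR-200a (spot SD 0.45). For miR-429 it was higher by 1.11 with its own undetected signals (spot SD 0.89), or by 0.95 with the negative controls as the floor. The detection calls of miR-429 allowed this direction only. In the 123 miRNAs, the first 2 were the highest values, ahead of miR-805 at 1.01, and the median was -0.06. A difference of at least 1 in this direction was reached by 2 of the 2 members measured and by 2.44% of the 123 miRNAs, and one in the other direction by neither member and 6.5% of the 123. With 1 array per condition and 4 conditions there were 0 residual degrees of freedom for this difference, so it was not tested. Dividing an array by another number moves this value by the same amount in every miRNA, so the first and second places hold under any scaling of whole arrays, while the sign of a single ratio need not.

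The time points were then compared within each genotype. In WT, the log2 ratio of ZT14 to ZT2 was -1.13 for miR-200b (spot SD 0.43), 2.18-fold lower at ZT14, and -1.07 for miR-200a (spot SD 0.33), 2.09-fold lower. These were the lowest and the third lowest of the 123 miRNAs, whose median was -0.13. miR-429 was 1.59-fold lower against its own undetected signal at ZT14 (log2 -0.67, spot SD 0.75), or at least 1.43-fold with the negative controls as the floor. miR-141 was at least 1.89-fold lower, and had no bound past 1 with that floor. At 2-fold, 2 of 5 members were lower in WT at ZT14, where 6.7% of 194 miRNAs were, and at 1.5-fold 4 of 5 were, beside 21.1%. With the negative controls as the floor the count at 1.5-fold was 2 of 5, beside 11.9%. The 2-fold count was 0 of 5 with the percentile over all mouse miRNAs (miR-200b -0.83, miR-200a -0.77), the median (-0.90 and -0.84), quantile normalization (-0.98 and -0.89) and miR-122 scaling (-0.96 and -0.90), under which 3.09% to 3.61% of the 194 were lower, and 4 of 5 with no scaling and with spike-ins, under which 30.4% and 37.1% were. In the mutant, the ratio was 0.47 for miR-200b (spot SD 0.27) and 0.19 for miR-200a (spot SD 0.31), the latter within its spot SD. There miR-429 was 1.35-fold higher at ZT14 against its own undetected signal at ZT2 (log2 0.43, spot SD 0.47). The median of the 123 miRNAs in the mutant was -0.17, and 0% of 163 miRNAs were 2-fold higher.

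Genotype and time point were tested across the 123 miRNAs with limma, in an additive fit with 1 residual degree of freedom, where each factor is averaged over the levels of the other. Ratios of opposite direction cancel in this fit. The genotype difference, mutant minus WT, was -0.13 ± 0.42 for miR-200b and -0.11 ± 0.34 for miR-200a (log2, SE), with an adjusted p of 0.889 for both by limma. The difference of ZT14 minus ZT2 was -0.33 ± 0.42 and -0.44 ± 0.34, with adjusted p of 0.714 and 0.577 by limma. The fit called 0 of 123 miRNAs for genotype (0%) and 0 for time point (0%), with 10 and 12 at an unadjusted p under 0.05. The fit has no term for the change of direction between the time points.

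The direction of ratios against the dim array of WT at ZT14 depended on the processing. Across 15 other ways of processing, the ratio at ZT2 stayed below 0 for both miR-200b (-1.11 to -0.29) and miR-200a (-1.33 to -0.20). At ZT14 it stayed above 0 under 14 of 15, up to 1.44 for miR-200b and 1.56 for miR-200a, and turned to -0.16 and -0.20 under normexp background correction with an offset of 50 units. That offset is larger than the mean signal of every member on every array. Under the same correction the ratio of ZT14 to ZT2 in WT turned to 0.04 and 0.10. Where a miRNA counts as detected only with at least 10 of its 20 spots well above background, miR-200b and miR-200a were not detected in WT at ZT14. The ratio of mutant to WT there was then 1.59-fold for miR-200b, against its own undetected signal, and at least 1.30-fold for miR-200a.

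**Figure D4:**
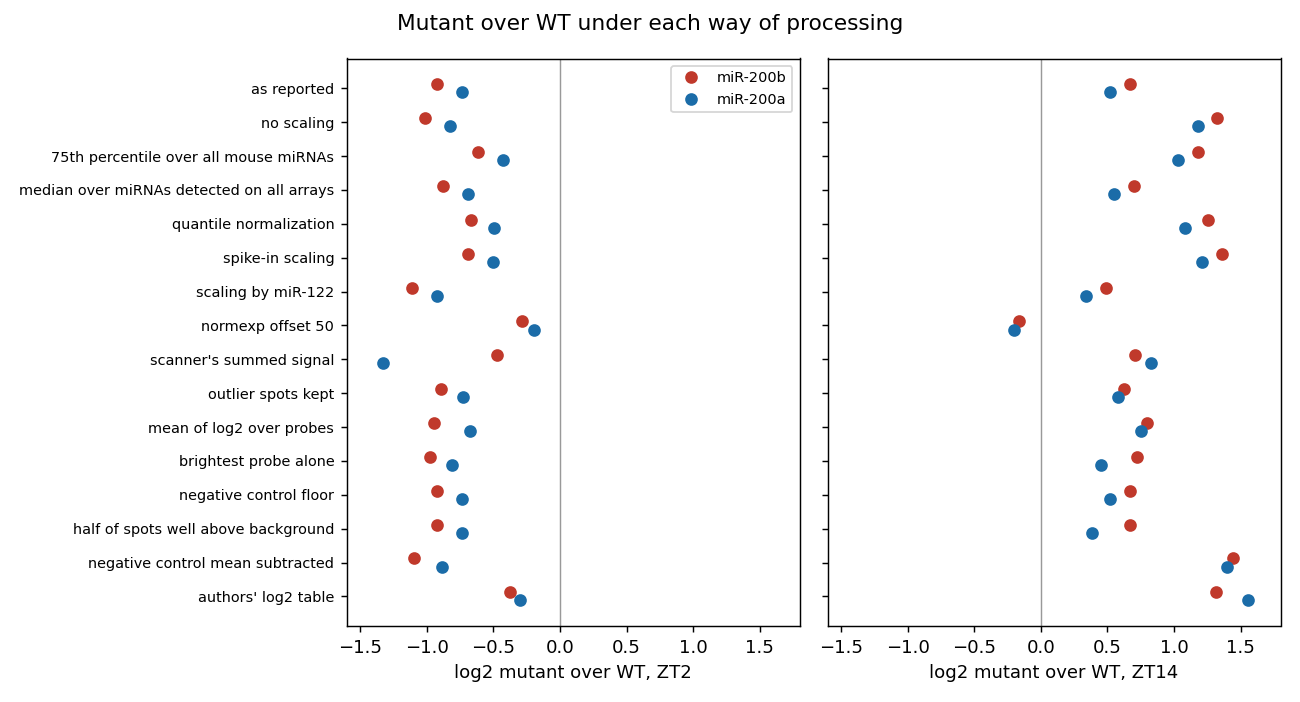
Log2 ratio of mutant to WT (x axis) of miR-200b and miR-200a at ZT2 (left) and at ZT14 (right) as reported and under 15 other ways of processing, 1 per row. All points are below 0 at ZT2, and at ZT14 all but those of normexp with an offset of 50 (-0.16 and -0.20) are above 0.

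Other miRNAs of epithelial cells were compared with the family. Of 7 listed (miR-31, miR-96, miR-182, miR-183, miR-203, miR-205 and miR-375), 3 were detected in each of WT at ZT2, the mutant at ZT2 and the mutant at ZT14, 2 in WT at ZT14, and miR-182, miR-183, miR-205 and miR-375 on none. Their summed scaled level, values below 0 included, was 38.4%, 33.7%, 31.6% and 33.6% of the percentile on the 4 arrays. miR-31 had mutant over WT log2 ratios of -0.19 at ZT2 and -0.02 at ZT14, and miR-203 ratios of -0.11 and -0.32. miR-96 had a ratio of -0.12 at ZT2 and one of 0.64 at ZT14, where only the mutant array detected it and its own undetected signal in WT was used. None of the 3 was lower in the mutant by 1.5-fold at ZT2. The array carries no mRNA, so cholangiocyte markers such as keratins could not be read and the bile duct as the source of the signal was not tested.

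The miRNAs with the scaled profiles most like those of miR-200b and miR-200a were then listed. Likeness was taken as the root mean square difference between log2 profiles over the 4 arrays, each centred on its own mean, among 122 candidates. miR-200a was the nearest to miR-200b and the reverse, at 0.10, where the median candidate was at 0.45 from miR-200b and 0.39 from miR-200a. Next to miR-200b came miR-143 (0.21), miR-342-3p (0.22), miR-142-3p (0.26) and miR-146a (0.29). The same 4 followed miR-200a, with miR-342-3p and miR-142-3p (0.16 and 0.17) ahead of miR-143 (0.17) and miR-146a (0.22). miR-142-3p is a miRNA of blood cells and miR-143 of smooth muscle and fibroblasts. Both were lower in the mutant at ZT2, with log2 ratios of -0.66 and -0.59, and had ratios of 0.19 at ZT14. Other listed miRNAs of fibroblasts and smooth muscle did not share this value at ZT2, where miR-199a-3p had 0.06, miR-199a-5p 0.09 and miR-214 -0.15. Among the listed leukocyte miRNAs at ZT2, miR-223 had -0.43. miR-142-5p had -1.21 against its own undetected signal in the mutant, and miR-150 and miR-155 were not detected. With 4 arrays such likeness is a description of these pools.

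The muscle and leukocyte lists were highest on the array of WT at ZT2. So were the list of other epithelial miRNAs above and that of fibroblasts and smooth muscle. The 5 muscle miRNAs summed to 30.9% of the percentile there and to between -0.929% and 0.408% on the other arrays, with miR-1, miR-133a and miR-133b detected on that array alone and miR-206 and miR-499 on none. The 5 leukocyte miRNAs summed to 122% in WT at ZT2, 78.7% in the mutant at ZT2, 62.9% in WT at ZT14 and 68.6% in the mutant at ZT14. Detected leukocyte members were 3, 2, 2 and 2, and miR-150 and miR-155 were detected on none. The 5 fibroblast and smooth muscle miRNAs summed to 67.2%, 60.8%, 52.7% and 64.7%, with 4, 4, 3 and 4 detected and miR-145 detected on none. Without miR-143 the other 4 summed to 45.0%, 46.1%, 38.0% and 48.1%, with WT at ZT2 below both mutant arrays. The 5 hepatocyte miRNAs, all detected on all arrays, had mutant over WT log2 ratios from -0.21 to 0.19 at both times, and the 2 strands of the endothelial miR-126 from -0.25 to 0.13. The red blood cell miRNAs went the other way at ZT2, with miR-451 at 0.84 and miR-144 at 0.37, and the 3 listed summed to 334%, 594%, 296% and 256% on the 4 arrays. The part of these cell types in the values of the miR-200 family was not tested.

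**Figure D5:**
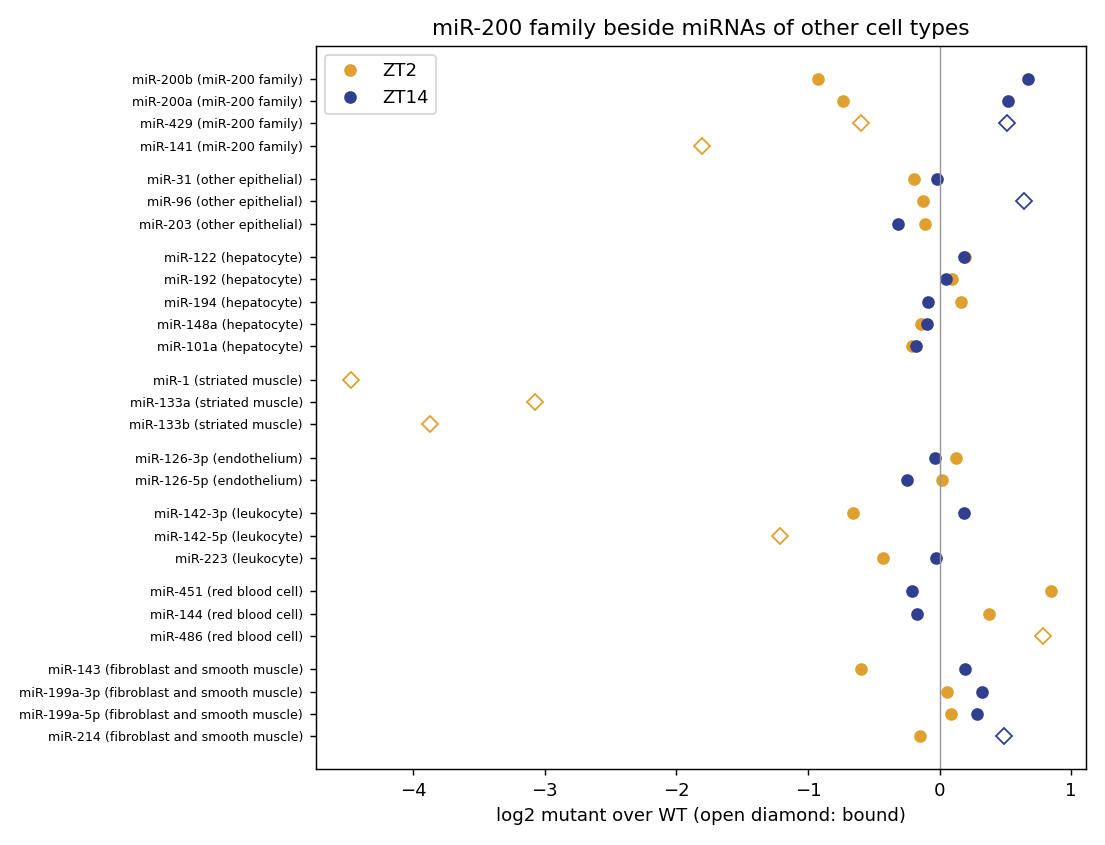
Log2 ratio of mutant to WT (x axis) at ZT2 and ZT14 for each member of the family and of 7 lists of other cell types that was detected on at least 1 of the 2 arrays compared, with open diamonds for bounds. miR-200b, miR-200a and miR-429 (bounds, whose side of 0 is set by the detection calls) lie left of 0 at ZT2 and right of it at ZT14. miR-141 has a bound at ZT2 only, and miR-200c has no point. The hepatocyte miRNAs stay within -0.21 and 0.19, and the muscle miRNAs have bounds at ZT2 only.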

How the data were processed

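Liver RNA, pooled from 3 mice per condition, was read on 4 one-colour arrays. The authors deposited Agilent Feature Extraction 10.7.1.1 output, with a background-subtracted linear intensity per spot and a detection call per miRNA. A second deposited file holds the authors' log2 values per miRNA, in which every undetected miRNA has 1 number per array (-7.51, -6.59, 0 and 0). The methods name Agi4x44PreProcess and a 2-fold threshold.

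Intensities were averaged over spots not marked as outliers (3.18% to 3.37% of spots were marked), then over probes, and scaled by each array's 75th percentile, computed from the 123 miRNAs that all arrays detected. A ratio with 1 side undetected is a bound against the higher of that side's own signal and the lowest detected signal there (1.99 to 3.02 units). Where its own signal is the higher, as for miR-429, the value is the ratio of the signals and no minimum. The spot SD of a log2 ratio combines the spot SDs of both arrays. Negative control spots averaged 5.48, 5.24, 8.32 and 9.72 units. The number of arrays limits the precision.

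limma 3.58.1 in R 4.3.3 fitted genotype and time point with Benjamini-Hochberg adjustment and was tested on simulated data. Python 3.11.15, numpy 2.4.6, pandas 2.3.3 and matplotlib 3.10.9 did the rest. Named miRNAs are the members, their star strands, the 5 nearest profiles of each member detected on all arrays, and list members that a result turns on, with miR-805 named after its value was seen. The members, lists and tests were chosen with earlier results of these data known. The alternatives were no scaling, other percentiles, the median, quantile, spike-in and miR-122 scaling, normexp, the scanner's summed signal, outlier spots kept, other probe summaries, other floors and detection calls, the authors' table and, for limma, other miRNAs, 1 factor alone or an array left out. Subtracting the mean of the negative controls was added after seeing the data.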

Additional observations from a re-analysis of the deposited data

Results flagged for a closer look

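The log2 ratio of mutant to WT had opposite directions at ZT2 and ZT14 in miR-200b and miR-200a, with a difference of ZT14 minus ZT2 of 1.59 and 1.26. For miR-429 the difference was 1.11 with its own undetected signals (spot SD 0.89), or 0.95 with the mean of the negative controls as the floor. By its detection calls, miR-429 could only come out as lower at ZT2 and higher at ZT14. The difference was not tested, since each condition had 1 array.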

How the results depend on the processing

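No paired analysis was possible because no condition was measured on more than 1 array. Values are means of miR-200b and miR-200a unless named. The mutant over WT log2 ratio at ZT2 (-0.83) was -0.52 with the percentile taken over all mouse miRNAs, -0.58 after quantile normalization, -0.60 with spike-in scaling, -0.24 with normexp and -0.34 in the authors' table. The ratio at ZT14 (0.60) was 1.25 with no scaling and, for those 5 settings in turn, 1.11, 1.17, 1.29, -0.18 and 1.44, and was 1.42 with the mean of the negative controls subtracted, a choice made after seeing the data. The ZT14 over ZT2 ratio in WT (-1.10) was -1.75 with no scaling, -0.80 with the percentile over all miRNAs, -1.81 with spike-ins and -2.24 with negative controls subtracted. It turned to 0.068 with normexp (miR-200b 0.038, miR-200a 0.10). In the authors' table, where undetected miRNAs have -7.51 (WT) and -6.59 (mutant) at ZT2 and 0 at ZT14, it was 5.45 (5.43 and 5.47). There 71.1% of the 194 miRNAs were 2-fold higher in this ratio, and 87.1% of 163 in the mutant, so it does not set the family apart. In the mutant this ratio (0.33) was 0.82 with the percentile over all miRNAs, 0.53 with the median, 0.81 with quantile normalization, 0.076 with spike-ins (miR-200a -0.06), 0.59 with the summed signal, 0.54 with probes averaged as log2 and 7.23 in the authors' table. The difference between the 2 genotype ratios (1.42) was 2.17 with no scaling, 1.88 with spike-ins, 0.059 with normexp (miR-200a -0.0063), 2.41 with negative controls subtracted and 1.77 in the authors' table. Under normexp miR-200b and miR-200a had places 7 and 23 of 123 for it, and with the summed signal places 10 and 5. Under the other 13 alternatives they held the first 2 places, but many of these could not change the places. No scaling, the percentile over all miRNAs, the median, spike-ins and miR-122 scaling move every miRNA equally. The negative control floor and the spot call reuse the same signals. The order of the 4 arrays was as reported under 9 of 15 alternatives for miR-200b, 8 for miR-200a and 7 for miR-429. The cause of these changes was not tested.

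The number of miRNAs past 2-fold at ZT2 (16) was 6 with quantile normalization and with the brightest probe, 1 with normexp, 50 with the summed signal, 2 with at least 10 of 20 spots well above background, 36 in the authors' table and 38 at 1.5-fold. At ZT14 (21) it was 34 with no scaling, 36 with spike-ins, 6 with normexp, 45 with the summed signal, 9 with the spot call, 49 in the authors' table and 34 at 1.5-fold. Between time points in WT (15) it was 60 with no scaling, 8 with the percentile over all miRNAs and with the median, 9 with quantile, miR-122 scaling and the negative control floor, 73 with spike-ins, 0 with normexp, 63 with the summed signal, 7 with the brightest probe, 4 with the spot call, 32 with negative controls subtracted, 138 in the authors' table and 44 at 1.5-fold. In the mutant (22) it was 5 with normexp, 39 with the summed signal, 11 with the spot call and 142 in the authors' table. Members detected fell to 2 in WT at ZT2 and 0 in WT at ZT14 with the spot call. limma's calls for genotype (0) were 79 in the authors' table, 6 with normexp, 1 with spike-ins, and 0 to 7 when an array was left out and genotype fitted alone, with the 7 found without the array of the mutant at ZT2. None of these was a member. Its calls for time point (0) were 5 with no scaling, 3 with normexp and 17 with spike-ins. In the authors' table they were all of the 123 miRNAs, miR-200b and miR-200a among them, so this call does not set the members apart. Undetected miRNAs have -7.51 (WT) and -6.59 (mutant) at ZT2 in that table, and 0 at ZT14.

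Signal over background limits the family: miR-200c and miR-141 were at or under the negative controls on 3 arrays, and miR-200b and miR-200a had the 19th and 12th lowest mean level of the 123 miRNAs. In WT at ZT14, miR-200b and miR-200a were 1.74 and 1.57 times the mean negative control.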
